A study of Homo sapiens with 8 samples.

Results

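ANKRD1, THBS1, CCN1, CCN2, AXL, AMOTL2, LATS2 and AJUBA are genes that the co-activators YAP and TAZ switch on through TEAD transcription factors, and YAP1 and WWTR1 encode YAP and TAZ themselves. These 10 genes were chosen by name, with the measured response of ANKRD1 and THBS1 to 5azaC already known, and are described here across the arrays of a human lung cancer cell line. On the array 9 of the 10 had a named probe set, out of 17687 gene symbols. The rule takes the brightest probe set of a gene, but each of the 9 had only 1, and AMOTL2 was not analysed here. Because ANKRD1 and THBS1 head the list for their measured change, their changes after treatment are given as a description without a test. The standard errors and intervals printed for these changes are part of that description and are no evidence for them.

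RNA was taken from H1299, an established line of non-small cell lung carcinoma that lacks p53, and was measured on 8 Clariom S arrays with 2 biological replicates in each of 4 groups. The groups were cells exposed for 120 h to gallic acid (GA), a phenolic acid of tea, untreated controls for GA, cells exposed for 120 h to 5-azacytidine (5azaC), a cytidine analog that traps DNA methyltransferases, and untreated controls for 5azaC. The study's methods give a dose of 10 μM for either compound, whereas the sample labels give 10 mM. Controls were untreated and of the same passage by the labels, all groups are 1 line with no genetic change, and no solvent control is named. Since RNA was measured in bulk, fewer cells that express a gene and less RNA in each cell cannot be told apart.

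In the Hippo pathway the kinases MST1 and MST2 activate the kinases LATS1 and LATS2. The LATS kinases phosphorylate YAP and TAZ, which keeps them out of the nucleus. YAP and TAZ that escape this enter the nucleus, bind TEAD factors and raise the transcription of genes for growth, adhesion and matrix, and several of those genes feed back on the pathway. The arrays measured RNA, so phosphorylation, location and protein were not seen, nor was DNA methylation.

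Signals are log2 values per probe set, normalized by the authors, and levels are compared for a gene across arrays and never between genes. A signal was taken as above background where it exceeded what 95% of the 612 negative controls of its array stayed under, a bar that ranged from 6.31 to 7.23 over the arrays and that 39.9% to 46.1% of the probe sets passed. The median signal of an array ran from 5.60 to 5.63 in the GA experiment, and in the 5azaC experiment from 5.85 to 5.87. Of carcinoma markers (KRT8, KRT18, VIM, CD44 and CDH2) 5 of 5 lay above background on every array, whereas 3 of 3 leukocyte, 3 of 3 endothelial, 4 of 4 cardiac and skeletal muscle and 4 of 5 fibroblast markers lay above it on no array. Changes were tested with limma over all 21448 probe sets, with replicate pairs as blocks and p-values adjusted by the Benjamini-Hochberg procedure. A change was called where the adjusted p lay under 0.05.

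The upstream sequences of ANKRD1, THBS1 and CCN2 are shown because TEAD factors act on these genes through the motif GGAATG, which reads as CATTCC on the other strand, marked here in capitals. Each is the run of 250 bases before the transcript start in RefSeq (GRCh38.p14), written along the strand of the gene: chr10:90921088-90921337 (minus strand) for ANKRD1, chr15:39580829-39581078 (plus strand) for THBS1 and chr6:131951373-131951622 (minus strand) for CCN2.
ANKRD1: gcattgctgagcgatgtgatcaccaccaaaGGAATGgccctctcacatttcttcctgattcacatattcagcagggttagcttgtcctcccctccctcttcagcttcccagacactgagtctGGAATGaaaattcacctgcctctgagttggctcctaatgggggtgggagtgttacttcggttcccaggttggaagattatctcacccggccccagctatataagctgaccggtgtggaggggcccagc
THBS1: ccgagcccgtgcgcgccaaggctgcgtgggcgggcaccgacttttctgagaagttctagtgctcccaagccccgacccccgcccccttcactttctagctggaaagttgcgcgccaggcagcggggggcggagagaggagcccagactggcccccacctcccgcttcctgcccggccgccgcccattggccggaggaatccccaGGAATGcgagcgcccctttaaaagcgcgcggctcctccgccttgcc
CCN2: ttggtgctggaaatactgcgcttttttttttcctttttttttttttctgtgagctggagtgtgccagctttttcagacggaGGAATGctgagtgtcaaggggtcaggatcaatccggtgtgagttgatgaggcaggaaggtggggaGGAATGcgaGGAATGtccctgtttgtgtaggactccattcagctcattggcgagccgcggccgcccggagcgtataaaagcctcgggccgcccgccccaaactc

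The ANKRD1 sequence held 2 motifs, which began 220 and 128 bases before the start, and THBS1 held 1 at 46 bases. CCN2 held 3, at 169, 104 and 95 bases. Both strands were searched, and the motif does not overlap its own reverse complement in these 3 sequences. Of 35116 such windows of human genes in the table, 11.9% held at least 1 motif, 0.940% at least 2 and 0.0826% at least 3. Windows were found for 9 of the 10 genes (13 windows, as some genes have more than 1 start), and 7 windows of 7 genes held a motif. These were the 3 shown, with AXL, AMOTL2 and AJUBA at 1 of 2 starts each and YAP1. LATS2 and WWTR1 had none in these windows, and CCN1 was not in the table. A motif match is a description of the letters and not a bound site, and the genes had been listed as TEAD targets to begin with.

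The same windows differed in CpG dinucleotides, the sites that DNA methyltransferases modify. ANKRD1 held 4, at percentile 29.3 of all windows, and THBS1 held 24, at percentile 76.3, while CCN2 held 13, at percentile 53.4. ANKRD1 and THBS1 lay on either side of the median window, which held 11.

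**Figure D1:**
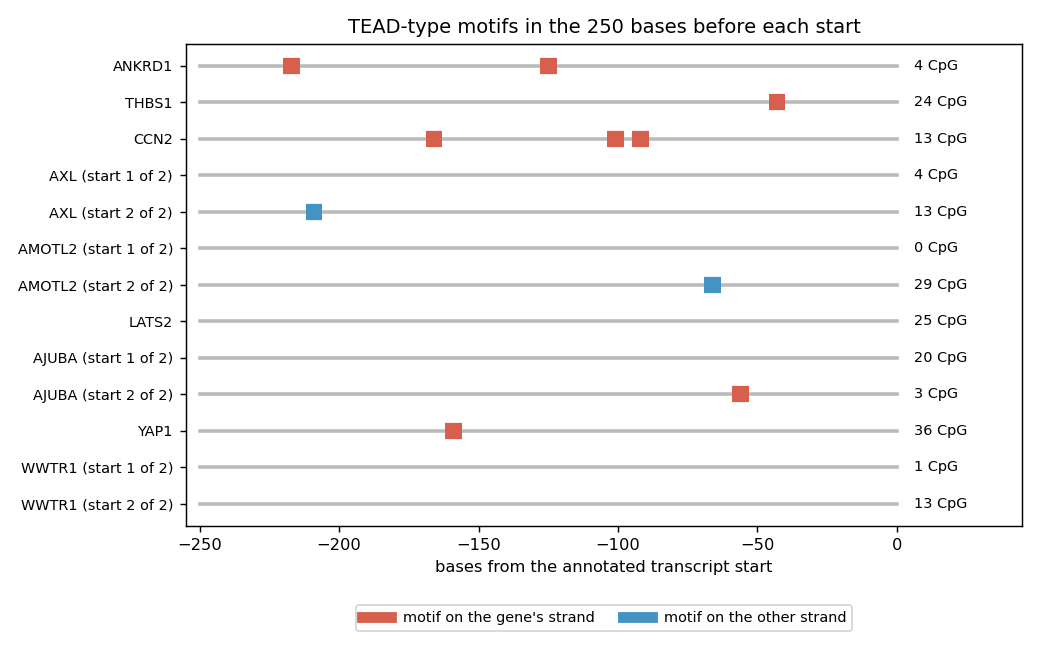
Positions of the motif GGAATG (red) or CATTCC (blue) in the 250 bases before each annotated start of 9 genes, in bases from the start, with the number of CpG dinucleotides of each window at the right. ANKRD1 has 2 motifs and CCN2 has 3, and 6 of the 13 windows have none.

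ANKRD1 encodes a nuclear ankyrin repeat protein of stretched heart and skeletal muscle and is a widely used readout of YAP activity. Its log2 signal was 7.73 and 8.03 after 5azaC and 5.43 and 5.59 on the control arrays beside it. In the GA experiment it was 5.77 and 5.82 in treated cells and 5.46 and 5.62 in untreated cells. Only the 5azaC arrays lay above background, which reached 7.23 there at most, and the other 6 arrays lay below it. The measured change after 5azaC was 2.37 on the log2 scale (SE 0.20, 95% interval 1.89 to 2.85), with 2.30 in the first pair and 2.44 in the second. Against the background percentile of the control arrays, ANKRD1 was at least 2.29-fold higher after 5azaC, and no change is read after GA, where both groups were below background. The muscle markers stayed below background on the arrays where ANKRD1 rose above it.

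THBS1, which encodes the secreted matrix protein thrombospondin 1, was well above background on all 8 arrays. It stood at 10.57 on both arrays after 5azaC and at 9.02 and 8.52 in their controls. After GA it stood at 9.85 and 9.98, against 9.09 and 9.46 in the controls for GA. In both experiments the treated arrays lay above every control array, and the order of the group means was 5azaC, GA, controls for GA and controls for 5azaC. The untreated groups, neighbours in that order, did not overlap, but their nearest arrays (9.09 and 9.02) were closer than replicates of either group (SD 0.26 and 0.36). The change was 1.80 after 5azaC (SE 0.22, 95% interval 1.27 to 2.32, or 3.47-fold) and 0.64 after GA (SE 0.22, 95% interval 0.12 to 1.16, or 1.56-fold).

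**Figure D2:**
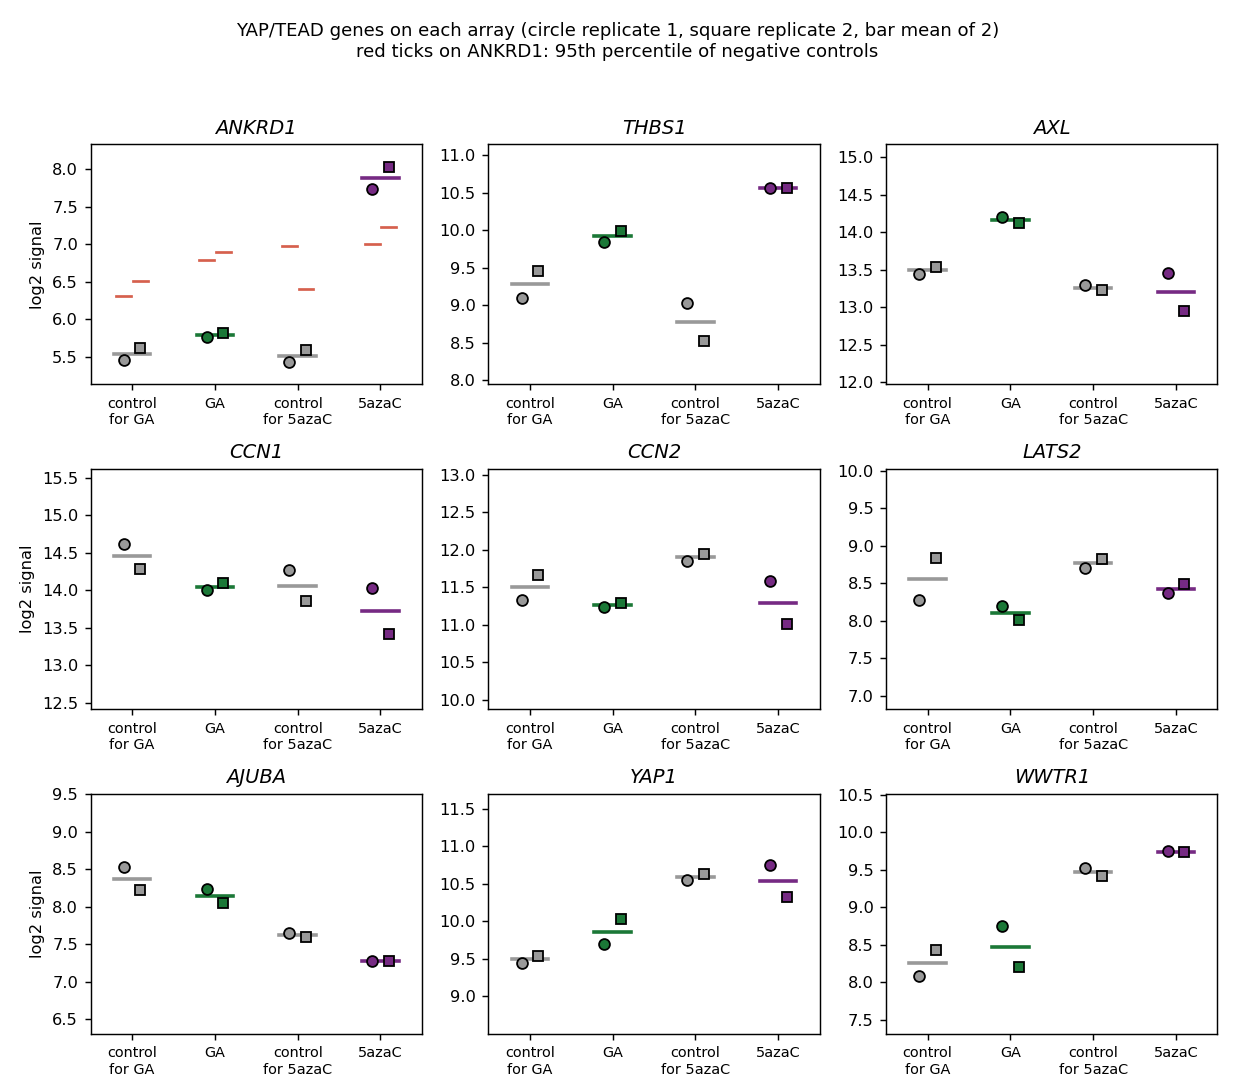
Log2 signal (y axis, each panel spanning the same number of log2 units) of the 9 measured genes in the 4 groups on the x axis, with a circle for replicate 1, a square for replicate 2 and a bar for their mean. ANKRD1 passes the background percentile (red ticks) after 5azaC only, THBS1 is highest after 5azaC, and YAP1 and WWTR1 are higher on every array of the 5azaC experiment than on any of the GA experiment.

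None of the other genes was called after either treatment. Of the 7 measured genes apart from these, limma called 0 after GA, where 0.322% of all probe sets were called (0.0793% higher and 0.242% lower), and 0 after 5azaC, where 1.51% were called (0.518% higher and 0.988% lower). At an unadjusted p under 0.05 there was 1 of the 7 after GA (AXL) and 1 after 5azaC (CCN2), beside 15.8% and 20.3% of all probe sets. The methods' paired t-test, with p-values adjusted here over all probe sets, called none of the 7. It called 0.042% of all probe sets after GA and 0.014% after 5azaC, so it says little about these genes. The study itself used unadjusted p-values with a fold cut-off, a rule not applied here. The median log2 change of the 7 was -0.23 after GA (3 positive, 4 negative) and -0.34 after 5azaC (1 positive, 6 negative), beside 0.02 and 0.05 over all probe sets. The treatments share no control arrays, but both comparisons draw on 1 estimate of the spread.

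CCN1 and CCN2, secreted matricellular proteins and the best known targets of YAP, were above background on all arrays. CCN1 measured 14.03 and 13.41 after 5azaC and 14.27 and 13.85 in the controls, which overlap. After GA it measured 14.00 and 14.09, below the controls at 14.62 and 14.29. Neither change passed the test, at -0.34 after 5azaC (95% interval -0.85 to 0.17, adjusted p = 0.431) and -0.41 after GA (95% interval -0.92 to 0.10, adjusted p = 0.425). The intervals reach no higher than 0.17 and 0.10 on the log2 scale.

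CCN2 measured 11.58 and 11.01 after 5azaC against 11.86 and 11.94, and 11.24 and 11.30 after GA against 11.33 and 11.66. All 4 treated arrays were thus lower than their controls, which after 5azaC was the direction opposite to ANKRD1, although the arrays there were far apart (SD 0.40). The change was -0.61 after 5azaC (95% interval -1.16 to -0.05, adjusted p = 0.213) and -0.23 after GA (95% interval -0.79 to 0.33, adjusted p = 0.714). CCN2 has the upstream window with 3 motifs printed above, the highest number among the 13.

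AXL, a receptor tyrosine kinase, was the gene with the largest positive value after GA among the 9. It measured 14.20 and 14.13 after GA and 13.45 and 13.54 in the controls, with no overlap and small spreads (SD 0.05 and 0.07). After 5azaC it measured 13.46 and 12.95, on either side of its controls at 13.30 and 13.23. The change after GA was 0.67 (SE 0.22, 95% interval 0.16 to 1.18, or 1.59-fold) and did not pass the test (adjusted p = 0.204, and 0.0201 to 0.673 over its alternatives). After 5azaC the change was -0.06 (95% interval -0.57 to 0.45, adjusted p = 0.907). As a difference between 5azaC and GA this gave -0.73 (95% interval -1.45 to -0.01, adjusted p = 0.745), which did not pass either. None of the 7 genes passed that test of the difference, in which limma called 0% of all probe sets (1430 had an unadjusted p under 0.05, and the fit with no replicate block also called 0), and AXL was the only 1 of them at an unadjusted p under 0.05.

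LATS2 and AJUBA act against each other on the pathway, LATS2 as a kinase that restrains YAP and AJUBA as a LIM protein that binds and inhibits LATS kinases. LATS2 measured 8.20 and 8.01 after GA against 8.28 and 8.83, and 8.37 and 8.49 after 5azaC against 8.71 and 8.83. AJUBA measured 8.24 and 8.04 after GA against 8.53 and 8.22, and 7.28 on both arrays after 5azaC against 7.65 and 7.60. On the second 5azaC array AJUBA lay just above the background bar of 7.23. Treated arrays of LATS2 were below their controls in both experiments, and those of AJUBA were so after 5azaC but overlapped after GA. The changes after GA were -0.45 for LATS2 (95% interval -1.01 to 0.11, adjusted p = 0.423) and -0.23 for AJUBA (95% interval -0.71 to 0.24, adjusted p = 0.649). After 5azaC both were -0.34, with 95% intervals of -0.90 to 0.22 (adjusted p = 0.48) and -0.82 to 0.13 (adjusted p = 0.393).

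**Figure D3:**
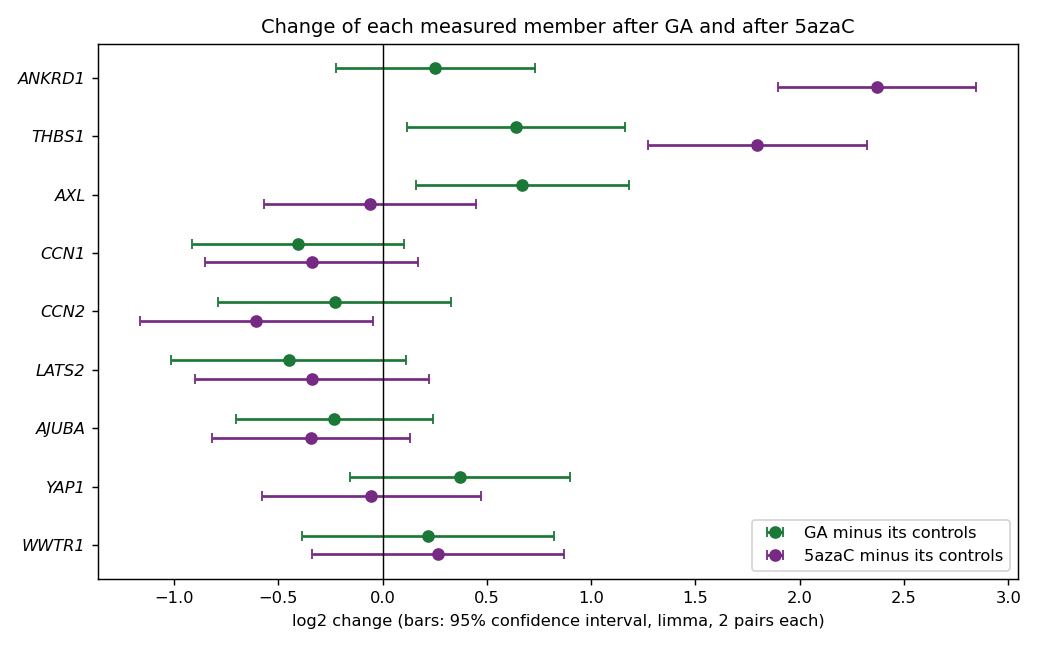
Log2 change of the 9 measured genes (x axis) after GA (green) and after 5azaC (purple) against their own untreated controls, with 95% intervals from limma over 2 pairs each. ANKRD1 and THBS1 lie far to the right after 5azaC, AXL lies to the right after GA, and CCN1, CCN2, LATS2 and AJUBA lie to the left of 0 after both.

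Neither co-activator passed the test after either treatment. YAP1 measured 9.70 and 10.03 after GA against 9.45 and 9.54, and 10.75 and 10.32 after 5azaC against 10.56 and 10.63. WWTR1 measured 8.75 and 8.20 after GA against 8.08 and 8.44, and 9.75 and 9.73 after 5azaC against 9.53 and 9.42. The pairs of groups overlapped for YAP1 after 5azaC and for WWTR1 after GA. For YAP1 the change was 0.37 after GA (95% interval -0.15 to 0.90, adjusted p = 0.486) and -0.05 after 5azaC (95% interval -0.58 to 0.47, adjusted p = 0.925). For WWTR1 it was 0.22 (95% interval -0.39 to 0.82, adjusted p = 0.751) and 0.27 (95% interval -0.34 to 0.87, adjusted p = 0.624).

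YAP1 and WWTR1 differed instead between the untreated cells of the experiments. In the controls for 5azaC, YAP1 was higher than in the controls for GA by 1.10 (SE 0.23, 95% interval 0.60 to 1.60, or 2.14-fold, adjusted p = 0.0106) and WWTR1 by 1.22 (SE 0.24, 95% interval 0.69 to 1.74, or 2.32-fold, adjusted p = 0.00902). AJUBA was lower there, at -0.75 (SE 0.21, 95% interval -1.21 to -0.29, adjusted p = 0.0306). These 3 of the 7 genes were called (2 higher, 1 lower) in a comparison that called 19.3% of all probe sets (15.2% higher and 4.07% lower) and whose median over all probe sets was 0.18. Of all those calls 78.9% were higher, but 46.9% with the arrays quantile normalized and 43.9% with medians centred. The labels do not say what set the experiments apart.

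The direction of these differences held under both other scalings, but not every call did. With the arrays quantile normalized YAP1 was higher by 0.69 (adjusted p = 0.0753) and WWTR1 by 0.83 (adjusted p = 0.0515), and AJUBA was lower, at -1.10 (adjusted p = 0.0131). With medians centred all 3 passed. In no fit with a control left out did all 3 calls hold. Such a fit leaves 1 array in a group, and calls over all probe sets fell as well. Over the alternatives run the values spanned 0.69 to 1.14 for YAP1, 0.83 to 1.39 for WWTR1 and -1.10 to -0.59 for AJUBA.

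Among CCN1, CCN2, AXL and LATS2 no difference between the untreated cells was called in the fit as deposited. The values for CCN1, CCN2, AXL and LATS2 were -0.39 (adjusted p = 0.311), 0.40 (adjusted p = 0.255), -0.23 (adjusted p = 0.493) and 0.21 (adjusted p = 0.551). THBS1 was at -0.51, and at -0.90 with quantile normalization. The controls for 5azaC are part of the response for which THBS1 was listed, so its values are a description without a test. The value of LATS2 turned negative under quantile normalization (-0.21) and median centring (-0.03). ANKRD1 lay below background in both sets of controls, so no difference is read.

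To set these genes in the pathway, other lists of its genes were counted in the same fit. These lists too were chosen with earlier results of these data known, so their counts are descriptions. Of 26 Hippo kinases and upstream regulators 23 were measured, 20 of them above background on both arrays of a group. After either treatment limma called 0, beside 0.322% (GA) and 1.51% (5azaC) of all probe sets. At an unadjusted p under 0.05 there were 6 each time, beside the 15.8% and 20.3% of all probe sets given above. The list had 19 of 23 positive log2 changes after GA, with a median of 0.21, and 19 of 23 after 5azaC, with a median of 0.28, where 52.6% and 55.1% of all probe sets were positive. The kinase LATS1 was at -0.32 after GA (adjusted p = 0.543) and -0.68 after 5azaC (adjusted p = 0.141, and 0.0334 with trend and robust eBayes), and NF2, the merlin protein that activates the kinases, was at 0.21 (adjusted p = 0.724) and 0.61 (adjusted p = 0.184). The largest values among those above background were 0.94 for AMOTL1, an angiomotin that holds YAP at junctions, after GA (adjusted p = 0.096) and 0.83 for the kinase MAP4K4 after 5azaC (adjusted p = 0.0897). Both passed with no replicate block (adjusted p = 0.0383 and 0.0465), without the dimmest probe sets (0.0489 and 0.0491) and with trend and robust eBayes (0.0331 and 0.0119), and MAP4K4 also with all untreated arrays as controls (0.0393).

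None of the TEAD factors, which carry YAP and TAZ to DNA, was called. Of 8 TEAD factors and cofactors, all measured and 5 above background, limma called 0 after either treatment. Over all probe sets it called 0.322% after GA and 1.51% after 5azaC. At an unadjusted p under 0.05 there was 1 each time, beside 15.8% and 20.3% of all probe sets. TEAD1, TEAD2 and TEAD3 lay between -0.07 and 0.12 after GA and between -0.40 and 0.43 after 5azaC. TEAD4 had the largest values of the 4, at -0.54 after GA (adjusted p = 0.354) and -0.71 after 5azaC (adjusted p = 0.172).

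A further 23 target genes of YAP and TEAD were listed, of which 18 were measured and 11 lay above background. The list was drawn up with earlier results of these data known, so its counts and calls are a description and no support. After 5azaC 2 were called higher and 0 lower (beside 0.518% and 0.988% of all probe sets), with a median log2 change of 0.20 (beside 0.05). After GA 0 were called higher and 1 lower (beside 0.0793% and 0.242%), with a median of 0.07 (beside 0.02). At an unadjusted p under 0.05 there were 4 of the 18 after GA and 5 after 5azaC, beside 15.8% and 20.3% of all probe sets. TGM2, a transglutaminase that cross-links proteins, measured 9.33 and 8.42 after 5azaC against 7.24 and 6.66, with no overlap. It rose by 1.92 (SE 0.22, or 3.79-fold, adjusted p = 0.0174), and its value after GA was 0.40 (adjusted p = 0.442). Outside 5azaC its arrays lay near background, and of the 2 controls for GA only 1 was above it. ARHGAP29 measured 10.56 and 11.00 after 5azaC against 9.37 and 9.32, and rose by 1.43 (SE 0.24, or 2.70-fold, adjusted p = 0.042). Its arrays after GA measured 9.77 and 9.95 against 9.25 and 8.89, at 0.79 (adjusted p = 0.184). TGM2 and ARHGAP29 thus showed the larger value after 5azaC, but tested against GA the excess did not pass for TGM2 (1.53, 95% interval 0.80 to 2.26, adjusted p = 0.743) or ARHGAP29 (0.65, 95% interval -0.15 to 1.44, adjusted p = 0.775).

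FJX1, whose Drosophila counterpart acts in planar cell polarity, did not pass in either experiment despite similar values in both, at 1.30 after GA (adjusted p = 0.127) and 1.47 after 5azaC (adjusted p = 0.0704). GADD45A, a stress sensor that other stress factors also control, fell by 1.63 after GA (SE 0.22, adjusted p = 0.0356) and was at -1.10 after 5azaC (adjusted p = 0.0572). It measured 10.34 and 9.82 after GA against 11.78 and 11.65, with no overlap, and 10.75 and 10.93 after 5azaC against 12.00 and 11.90, also with none. After 5azaC it was called with no replicate block (adjusted p = 0.0273), without the dimmest probe sets (0.0307), with trend and robust eBayes (0.00291) and with all untreated arrays as controls (0.0451). Calls on single genes in this list rested on few arrays. In fits on the 4 arrays of the 5azaC experiment, which the fits without GA replicate 1 or without GA replicate 2 equal, TGM2 (adjusted p = 0.0634) and ARHGAP29 (adjusted p = 0.0929) were not called. Without 5azaC replicate 2, which leaves 1 array a group, ARHGAP29 was at 1.19 after 5azaC. GADD45A after GA was at -1.82 without GA replicate 1 and -1.44 without GA replicate 2. Neither gene was called there, and calls over all probe sets fell in these fits as well. Over the alternatives run the adjusted p spanned 0.000737 to 0.535 for TGM2, 0.00192 to 0.574 for ARHGAP29 and 0.000278 to 0.671 for GADD45A, with the highest from the methods' paired t-test.

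**Figure D4:**
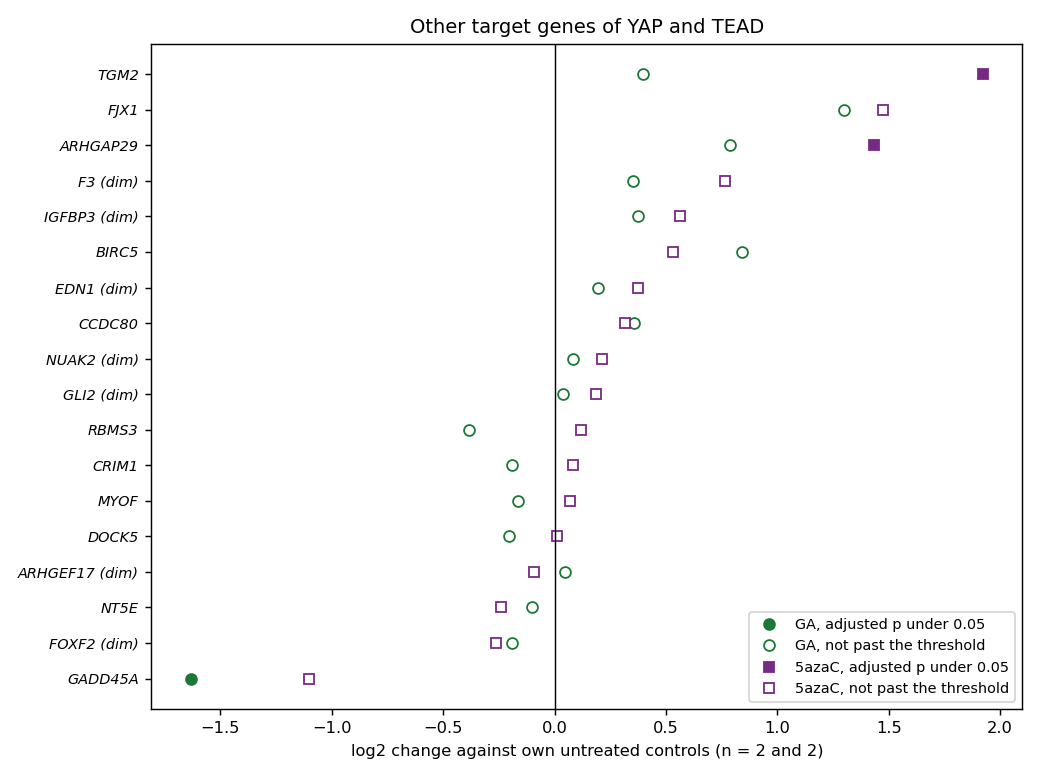
Log2 change against own untreated controls (x axis) of 18 further target genes of YAP and TEAD after GA (green circles) and after 5azaC (purple squares), filled where the adjusted p lay under 0.05, with genes that were above background on both arrays of no group marked as dim. TGM2 and ARHGAP29 are filled to the right after 5azaC and GADD45A to the left after GA.

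The matricellular relatives of THBS1, CCN1 and CCN2 were mostly below background in these cells. Of 8 other thrombospondins and CCN family genes only THBS3 lay above background on both arrays of a group. It was at -0.01 after GA (adjusted p = 0.994) and -0.31 after 5azaC (adjusted p = 0.468). In either comparison limma called 0 of the 8, beside 0.322% (GA) and 1.51% (5azaC) of all probe sets. At an unadjusted p under 0.05 there was 1 each time, beside 15.8% (GA) and 20.3% (5azaC) of all probe sets. Targets of SRF and its cofactor MRTF respond to actin and share genes with YAP. Of 17 measured, 0 were called after GA and 1 after 5azaC, beside 0.322% and 1.51% of all probe sets. At an unadjusted p under 0.05 there were 5 each time, beside 15.8% and 20.3%. Changes were positive for 13 of the 17 after GA (median 0.37) and for 12 after 5azaC (median 0.27). Over all probe sets 52.6% and 55.1% were positive, with medians of 0.02 and 0.05. The 1 called gene was EGR1, an immediate early factor, which fell by 1.61 after 5azaC (SE 0.23, adjusted p = 0.0312) and was at -1.30 after GA (adjusted p = 0.0736). Its arrays after 5azaC were both at 9.08, against 10.83 and 10.55. EGR1 was not called without either GA replicate (adjusted p = 0.0817). Nor was it without 5azaC replicate 1, where it was at -1.47 and calls over all probe sets fell as well. Its adjusted p spanned 0.000662 to 0.539 over the alternatives run. After GA it was called with no replicate block (adjusted p = 0.0292), on the 4 arrays of that experiment (0.0172, also without either 5azaC replicate), without the dimmest probe sets (0.039) and with trend and robust eBayes (0.00309).

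Across the 8 arrays ANKRD1 and THBS1 had a Pearson's r of 0.83, where 6 of the ANKRD1 values were below background. Both genes were listed with their rise after the same treatment already known, so a high r between them followed from the choice. The r of ANKRD1 with the other 7 genes ran from -0.74 for AJUBA to 0.63 for WWTR1, and that of THBS1 from -0.69 for CCN2 to 0.23 for WWTR1. These are descriptions over 8 arrays of 4 groups that share the difference between the experiments, and no test is attached.

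Of 3228 named genes that spanned at least 1 log2 unit between group means and were above background in a group, IFIT1, an interferon-induced antiviral protein, was most like ANKRD1 (r = 0.98), followed by DMXL1 (0.97), MED12L (0.96), C5orf34 (0.95) and FAR2 (0.95). Most like THBS1 were the aldehyde oxidase AOX1 (r = 0.97), ZNF556 (0.95), SRRT (0.94), the cytokine receptor subunit LIFR (0.94) and LOX (0.92), which cross-links collagen. The group means of IFIT1 were 7.47 after 5azaC, 5.98 in its controls, 6.24 after GA and 5.77 in untreated cells beside it, and those of AOX1 were 7.25, 5.84, 6.59 and 5.91. These genes were picked for their likeness, so a high mean after 5azaC followed from the choice. Outside 5azaC the means of IFIT1, AOX1 and LOX lay below the background bars of their arrays. They met the background condition through the 5azaC arrays only.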

How the data were processed

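RNA of H1299 cells was measured on 8 arrays, assigned to groups and replicates from the sample labels. The authors ran Affymetrix Expression Console 1.4 with Signal Space Transformation and RMA, and the deposited table holds log2 signals. As for the genome build of the array design, it is not given in the sources read. The table has 24351 entries, of which 2903 are controls, and the other 21448 were tested as deposited with none filtered. A platform table named 17709 of these with 1 symbol, and 3739 are unnamed here. The lists and the 10 genes were chosen with earlier results of these data known.

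Tests used limma 3.58.1 (lmFit and eBayes, R 4.3.3). A single model of the 8 arrays held the 4 pairs as blocks and 1 coefficient for each treatment, with 2 residual and 5.56 prior degrees of freedom. The pairing follows the paired test of the study's methods and the passage shared by treated and untreated cells in the labels. Deviations of same-numbered arrays from their group means correlated at -0.023 for GA and 0.0289 for 5azaC. For untreated arrays a model of the 4 groups was used, with no pairs (4 residual degrees of freedom). Benjamini-Hochberg adjustment was used, and calls were made at 0.05. Intervals cover 95%. Nothing beyond the labels says that replicates came from separate cultures, and p-values measure the spread between these arrays, whose number limits the precision. Where a group lay below background on both arrays, the fold is a bound against the background percentile, or against the dim group's own signal if that was higher.

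Named genes were the 10, TEAD1 to TEAD4, LATS1 and NF2, list members called after a treatment or, where none was, the largest change among those above background, and for ANKRD1 and THBS1 the 5 genes with the highest Pearson's r. FJX1 was named after its values were seen. Alternatives were a fit with no replicate block, each experiment fitted on its own 4 arrays, quantile normalization, centring on the median, dropping the 33.3% of probe sets with the dimmest mean, trend and robust eBayes, the mean of a gene's probe sets, all untreated arrays as controls, each pair left out, and the methods' paired t-test. The paired t-test was judged by Benjamini-Hochberg adjusted p with no fold cut-off, whereas the study used unadjusted p-values with a fold cut-off. The scripts were tested on simulated data. Promoter sequences came from RefSeq (GRCh38.p14), in which 9 of the 10 genes matched.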

Additional observations from a re-analysis of the deposited data

How the results depend on the processing

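For the 7 genes besides ANKRD1 and THBS1, the count of 0 called after GA became 1 (AXL) with trend and robust eBayes, and the counts of 0 after 5azaC and for the difference held under each alternative run. The count of 3 between untreated arrays became 1 (AJUBA) with quantile normalization and 0 to 1 with a replicate left out. For ANKRD1 the change after 5azaC kept its sign throughout, as did those of THBS1 after both treatments. Both genes were listed for their response to 5azaC, so the kept sign is a description and no support.

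With no replicate block, 425 probe sets were called for GA and 889 for 5azaC in place of 69 and 323, none of them among the 7 genes. Other alternatives for GA and 5azaC gave 620 and 22 (own 4 arrays), 408 and 937 of 14298 (dimmest probe sets left out), 1210 and 1838 (trend and robust eBayes), 151 and 780 (all untreated arrays as controls) and 9 and 3 (the methods' paired t-test). The difference between the treatments gave 4 with all untreated arrays as controls and 0 to 3 with a pair left out. Untreated arrays gave 4134, against 2220 with quantile normalization and 0 to 1405 with an array left out. With a pair left out the counts were 0 to 620 for GA and 22 to 257 for 5azaC. Such a fit leaves a treatment 1 array a group, which is assumed to vary like the others.

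With all untreated arrays as controls, signs turned for AJUBA (0.14), YAP1 (-0.18), WWTR1 (-0.39) and TEAD1 (-0.0591) after GA and for YAP1 (0.50) after 5azaC. LATS2 between untreated arrays turned with quantile normalization (-0.21) and median centring (-0.0278). With a replicate left out, values ran from -0.23 to 0.67 for WWTR1, -0.31 to 0.55 for TEAD1, -0.18 to 0.0412 for TEAD2 and -0.0600 to 0.22 for TEAD3 after GA, from -0.28 to 0.16 for AXL and -0.31 to 0.20 for YAP1 after 5azaC, and from -0.0645 to 0.48 for LATS2 between untreated arrays. The cause was not tested. None of these values passed the test. On its own 4 arrays a treatment cannot be set against the other, so that alternative was not run for the difference, and the paired t-test was run for neither the difference nor the untreated arrays. Signal over background limits ANKRD1, which lay below it on 6 arrays. AJUBA after 5azaC and TGM2 outside 5azaC lay near it.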
